A study of Mus musculus with 2 samples.

Results

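The complement genes described here are C1qa, C1qb, C1qc, C1s1, C4b, C3, Cfb, C3ar1 and C5ar1, 9 of the 32285 genes counted in each library, taken by symbol. The study measured the temporomandibular joint (TMJ) of female mice by droplet single-cell RNA sequencing after injection of complete Freund's adjuvant (CFA), an inflammatory agent, into the joint. One library came from wild-type (WT) mice and 1 from Prox1+/- mutant mice, both on C57BL/6 and 8 to 10 weeks old by the labels, and both carried the CFA treatment. Prox1 encodes a transcription factor of lymphatic endothelium, and mice with 1 intact copy serve as a model of lymphatic malfunction in the whole animal, not in 1 cell type. The comparison of the libraries asks how the joint's cells differ when lymphatic vessels are deficient during arthritis.

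Complement is a cascade of plasma and tissue proteins that marks microbes, debris and immune complexes for removal. In the classical pathway C1q recognises a surface and its proteases C1r and C1s cleave C4 and C2, while the alternative pathway amplifies the deposition of C3 through factor B. Cleavage of C3 and C5 releases small peptides that act on myeloid cells through the receptors C3aR1 and C5aR1. The liver makes most plasma complement, and macrophages and fibroblasts make part of it locally.

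The WT library held 53517206 unique molecular identifiers (UMIs, 1 per captured transcript) over 5709 barcodes and the mutant library 62446987 over 7846. Filters on genes and mitochondrial share kept 4352 and 5757 cells, with a median of 6997 and 4848 UMIs, and 10 barcodes occurred in both libraries. Prox1 was counted at 11.6 CPM (UMIs per 1000000 UMIs of the cells named, 95% interval 10.7 to 12.6) in the WT library and at 5.80 CPM (5.18 to 6.48) in that of the mutant. Clustering was done without complement genes and gave 46 clusters, of which 7 stayed unnamed, and a class name below means that a cluster's markers were like those of that cell type. The unnamed clusters held 6.87% of WT cells and 28.2% of mutant cells. The Prox1 levels pool all kept cells, of which 1045 in WT and 527 in the mutant were endothelial cells. The Prox1 difference therefore mixes the make-up of the libraries with expression, and a difference within a class was not tested. Each condition has 1 library and no replicates, so no p-value is given. Intervals are 95% limits for counting error alone, and a difference beyond them was not compared with the spread between mice.

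All 9 genes lie on the minus strand of GRCm38 in the GENCODE M21 annotation. C1qa (ENSMUSG00000036887, chr4:136895917-136898803), C1qc (ENSMUSG00000036896, chr4:136889804-136893065) and C1qb (ENSMUSG00000036905, chr4:136880129-136886187) encode the 3 chains of C1q and sit side by side within 18675 bases. C4b (ENSMUSG00000073418, chr17:34728380-34743882) and Cfb (ENSMUSG00000090231, chr17:34856374-34862518) share a region of chromosome 17, on which C3 (ENSMUSG00000024164, chr17:57203970-57228136) also lies. C1s1 (ENSMUSG00000038521, chr6:124530345-124542359) and C3ar1 (ENSMUSG00000040552, chr6:122847138-122856161) are on chromosome 6, and C5ar1 (ENSMUSG00000049130, chr7:16246743-16259540) is on chromosome 7. C4b and C1s1 have near-identical copies in the mouse genome, so how reads were split between copies is uncertain.

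Promoters of RefSeq (GRCm38.p6, 250 bases before to 50 after the start) were matched for 6 of the 9 genes. Both available C1q promoters are shown because these genes shared their pattern over cell types, and those of C3 and C1s1 because they are the stromal genes. Capitals mark matches, on either strand, to GAGGAA (a core bound by PU.1), GTCAGC (a core of the MAF site) or TTNNGNAA (a loose form of the C/EBP site), and TTCNNNGAA (the STAT core) was searched too.
C1qb (chr4:136886151-136886450, minus strand): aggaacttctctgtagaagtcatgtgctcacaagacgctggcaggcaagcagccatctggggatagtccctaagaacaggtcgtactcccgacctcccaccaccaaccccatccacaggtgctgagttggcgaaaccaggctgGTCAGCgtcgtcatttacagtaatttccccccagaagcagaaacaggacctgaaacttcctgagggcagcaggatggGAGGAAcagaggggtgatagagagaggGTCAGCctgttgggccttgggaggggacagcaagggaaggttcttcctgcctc
C1qc (chr4:136892865-136893164, minus strand): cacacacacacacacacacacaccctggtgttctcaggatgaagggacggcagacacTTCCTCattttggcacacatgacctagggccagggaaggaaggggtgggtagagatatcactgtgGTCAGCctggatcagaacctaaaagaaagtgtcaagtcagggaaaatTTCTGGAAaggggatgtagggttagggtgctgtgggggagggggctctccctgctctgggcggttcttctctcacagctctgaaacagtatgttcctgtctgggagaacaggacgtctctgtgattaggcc
C3 (chr17:57228087-57228386, minus strand): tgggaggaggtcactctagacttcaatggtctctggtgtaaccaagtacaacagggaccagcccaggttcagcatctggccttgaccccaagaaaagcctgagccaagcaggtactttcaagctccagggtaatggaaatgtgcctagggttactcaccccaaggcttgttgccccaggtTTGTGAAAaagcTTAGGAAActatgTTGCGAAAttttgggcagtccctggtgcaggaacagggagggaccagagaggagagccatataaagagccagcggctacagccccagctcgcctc
C1s1 (chr6:124542310-124542609, minus strand): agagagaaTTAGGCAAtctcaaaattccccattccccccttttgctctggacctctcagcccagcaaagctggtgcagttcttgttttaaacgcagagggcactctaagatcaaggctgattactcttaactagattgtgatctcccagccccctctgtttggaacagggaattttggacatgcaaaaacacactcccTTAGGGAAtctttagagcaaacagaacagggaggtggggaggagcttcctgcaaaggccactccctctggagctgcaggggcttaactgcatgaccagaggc
The C1qb window held GAGGAA at -30 and GTCAGC at -107 and -3, counted from the start to the first base of the match. The C1qc window held GAGGAA on the opposite strand at -193, GTCAGC at -128 and TTNNGNAA at -81. The C3 window held TTNNGNAA at -70, -58 and -45, and that of C1s1 at -242 and -52. Over 32544 promoters of the same length, GAGGAA occurred in 28.1%, GTCAGC in 15.7%, TTNNGNAA in 40.7% and TTCNNNGAA in 8.33%, and 3 or more TTNNGNAA occurred in 3.6%. C5ar1 held TTNNGNAA at -157, C3ar1 held no match, and TTCNNNGAA was in no window of the 6. The RefSeq starts of C1qc and C5ar1 used here lie inside the GENCODE genes given above. GTCAGC and TTNNGNAA of C1qc and the C5ar1 match therefore fall within those annotated genes. These matches describe letters only and show no binding.

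The 9 genes fell into myeloid and stromal patterns. Among the 16 classes with at least 20 cells in both libraries, the C1q genes and C3ar1 were highest in macrophages, C5ar1 in neutrophils, C3, C4b and C1s1 in mesenchymal cells, and Cfb in macrophages ahead of mesenchymal cells, in each library. For C3ar1 the WT interval of macrophages overlapped that of T cells, and for C1s1 mesenchymal cells and pericytes overlapped. Macrophages held 86.3% of the C1q UMIs of all kept WT cells and 75.2% of those of the mutant. Unnamed clusters held 0.447% and 6.38% of them and neutrophils 9.03% and 12.9%, so the macrophage shares also depend on which clusters were named. Mesenchymal cells held 81.3% and 57.5% of the C4b UMIs and 74.7% and 69.2% of the C1s1 UMIs. Levels are given per gene and are not compared between genes.

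**Figure D1:**
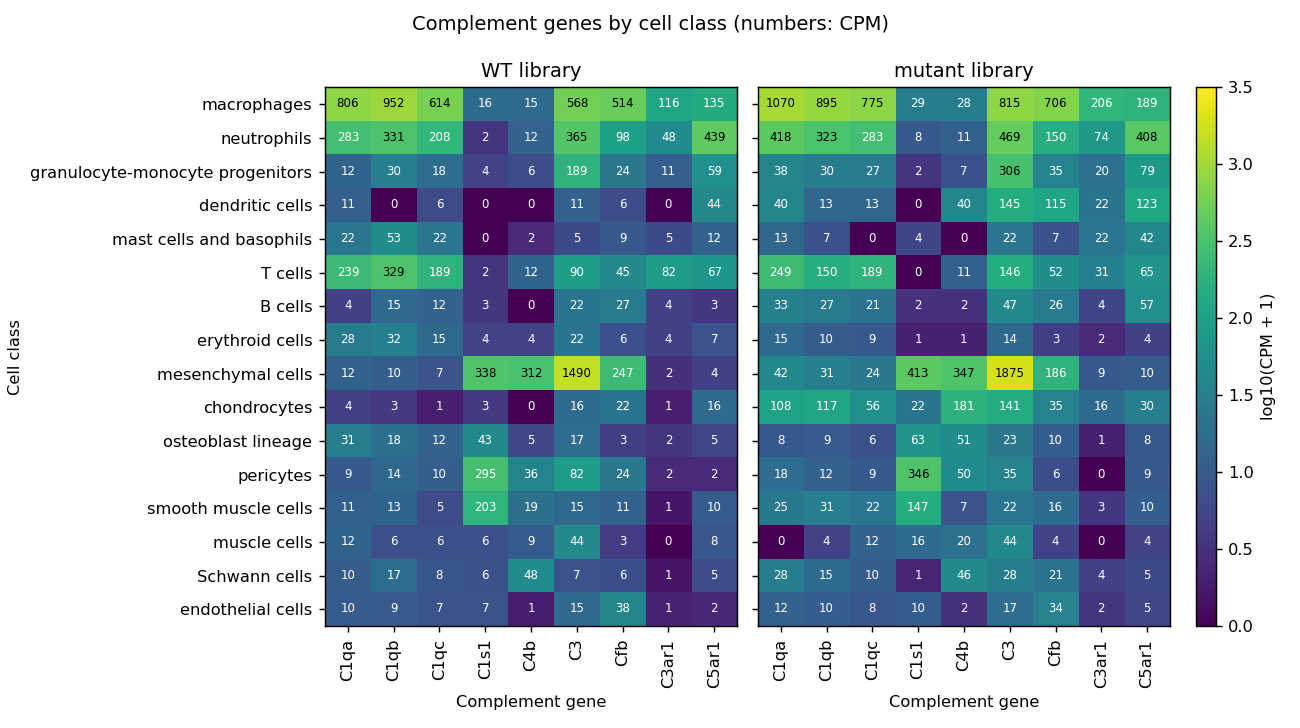
CPM of the 9 complement genes (columns) in 16 cell classes (rows) of the WT and the mutant library, printed in each cell and coloured by log10(CPM + 1). The 3 C1q genes and C3ar1 peak in macrophages, C5ar1 in neutrophils, and C3, C4b and C1s1 in mesenchymal cells, in both libraries.

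C1q is the recognition molecule of the classical pathway, built from A, B and C chains. In macrophages C1qa was at 806 CPM in WT cells and 1070.5 CPM in mutant cells, C1qb at 952 and 895 CPM, and C1qc at 614 and 775 CPM. B cells, which are not known to make C1q, gave the background: C1qa was at 3.86 and 32.7 CPM there, with median depths of 4013 and 5030 UMIs per cell against 16556 and 15567 in macrophages. When each cell was thinned to 2000 UMIs, 46.1% of WT and 45.6% of mutant macrophages had a C1qa UMI (65.3% and 61.2% without thinning), against 1.68% and 4.17% of B cells (2.04% and 12.4%). Thinning left out shallower cells and kept 544 of 565 WT macrophages, 590 of 641 mutant macrophages, 119 of 147 WT B cells and 96 of 121 mutant B cells.

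Within macrophages C1q was highest in 1 subset, which held 9767 of the 29888 WT and 19566 of the 36083 mutant UMIs of the 3 genes. Reclustering gave 6 subclusters, of which 2 could be named. M2-like macrophages (67 WT and 102 mutant cells) were raised in Mrc1, Ccl8, Folr2, Lyve1 and Pf4, genes of resident and tissue-repairing macrophages. M1-like macrophages (208 and 170 cells) were raised in Mmp12, Spp1 and Arg1, and led by Mmp12 with Prg4 and Acta2 also among the leading genes. The M1 markers Nos2 and Acod1 did not reach the 2-fold rule there, with Nos2 at 301 and 452 CPM against 223 and 256 CPM in the other macrophages, and Acod1 at 418 and 678 CPM against 517 and 655 CPM. Arg1 is commonly listed with alternative activation, so the name rests on the marker list used. The other subclusters stayed unnamed. Subcluster 1 (131 and 159 cells) was led by Plac8 and Ly6c2 with neutrophil genes, subcluster 2 (74 and 107 cells) by no macrophage subset's markers, subcluster 4 (74 and 95 cells) by haemoglobin genes, and the last held 11 and 8 cells.

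The sum of the 3 C1q genes was 10064 CPM in WT and 8864 CPM in mutant M2-like macrophages, against 860 and 851 CPM in M1-like macrophages. M2-like cells were therefore higher by 3.55 on the log2 scale (3.503 to 3.60) in WT cells and by 3.38 (3.33 to 3.43) in mutant cells. After thinning, all 3 genes were found together in 92.5% of WT and 85.3% of mutant M2-like cells, and in 11.1% and 15.3% of M1-like cells. All 3 were found in 0 of 119 and 0 of 96 thinned B cells, which allows a share of up to 3.05% and 3.77% by the exact Clopper-Pearson limit. Subclusters 1, 2 and 4 lay between the named subsets, at 3637, 1427 and 3860 CPM in WT and 2305, 1103 and 3657 CPM in the mutant.

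The same contrast split the 9 genes by direction. In WT, 9 of 9 differed by 2-fold or more between the named subsets, 6 of them higher in M2-like cells (17.1% of 8376 genes with at least 50 UMIs were) and 3 lower (8.43% were). In the mutant 8 of 9 did, 5 higher (10.5% of 8757 genes were) and 3 lower (7.77% were). The genes higher in M2-like cells of both libraries were C1qa, C1qb, C1qc, C4b and C3ar1, and C3, Cfb and C1s1 were lower. C5ar1 was higher by 2.13 on the log2 scale (1.92 to 2.33) in WT cells and by 0.91 (0.74 to 1.08) in mutant cells. C1s1 rests on 2 and 7 UMIs in the M2-like cells. The M1-like name was lost under 5 of the alternative settings, and no contrast could be made there.

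**Figure D2:**
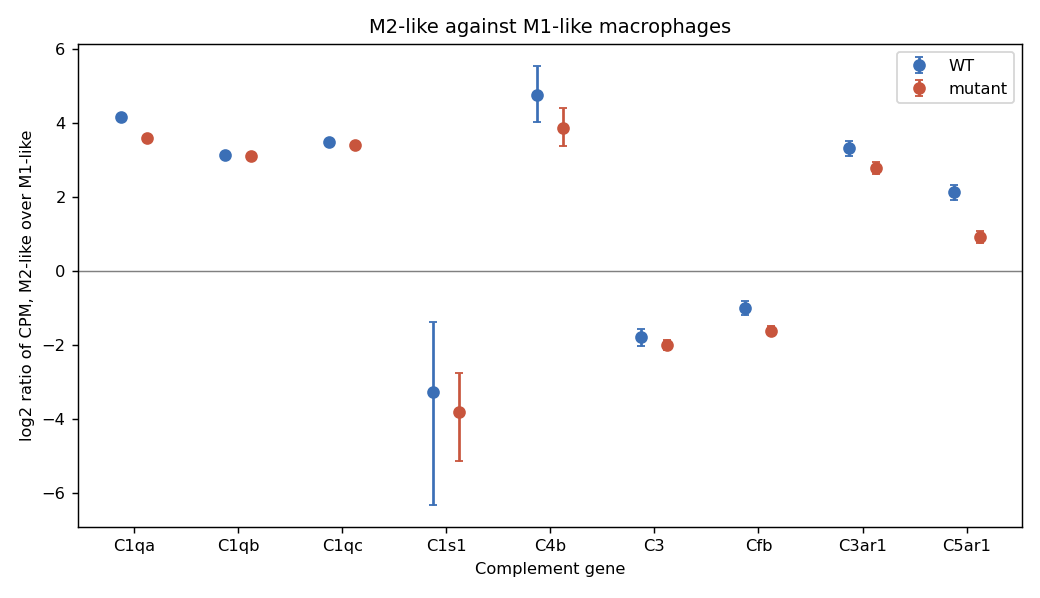
Difference between M2-like and M1-like macrophages (log2 of the ratio of CPM) for the 9 complement genes, in WT and mutant cells, with 95% counting intervals. C1q, C4b and C3ar1 lie above 0 in both libraries, and C3, Cfb and C1s1 lie below 0.

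Between the libraries, C1q in macrophages taken as a whole and C1q in its subsets did not move alike. Over all macrophages the sum was 2371.5 CPM (29888 UMIs) in WT and 2739.9 CPM (36083 UMIs) in the mutant, higher by 0.21 on the log2 scale (0.19 to 0.23). Within subsets it was lower in the mutant by -0.66 (-0.70 to -0.61) in subcluster 1, -0.37 (-0.51 to -0.24) in subcluster 2 and -0.18 (-0.22 to -0.15) in M2-like cells. It was -0.08 (-0.14 to -0.01) in subcluster 4 and -0.01 (-0.07 to 0.04) in M1-like cells, whose interval includes 0. M2-like cells held 7.70% of the macrophage UMIs in WT and 16.8% in the mutant, and M1-like cells 56.0% and 42.5%. With the mutant subclusters weighted by the WT shares of UMIs, the mutant level was 1977 CPM, a difference of -0.26 from WT. With each cell thinned to the same depth the pooled difference was -0.13, and as a mean over cells -0.087, so its direction depends on the weighting of cells.

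**Figure D3:**
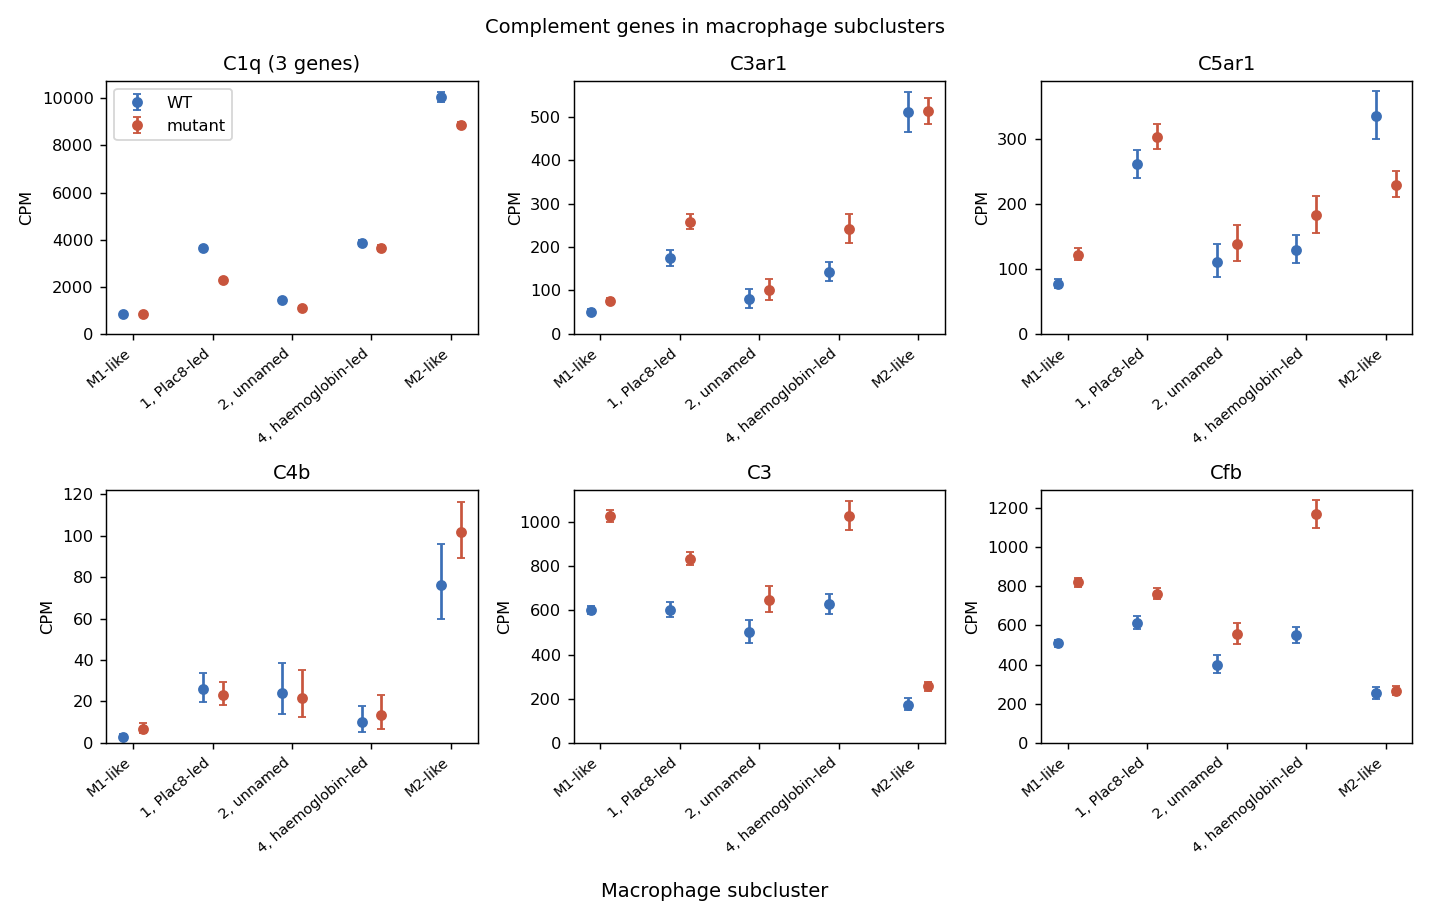
CPM of the C1q sum, C3ar1, C5ar1, C4b, C3 and Cfb (linear axes from 0) in each macrophage subcluster with at least 20 cells per library, WT beside mutant, with 95% counting intervals. C1q is highest in the M2-like subcluster of both libraries, and C3 is higher in the mutant in every subcluster shown.

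The 3 chains did not change in proportion. For each C1qa UMI, WT macrophages had 1.18 C1qb UMIs (1.15 to 1.21) and mutant macrophages 0.836 (0.816 to 0.857). The ratio of C1qb to C1qa was lower in the mutant in all 7 cell classes and all 5 macrophage subclusters with at least 20 UMIs of each gene in both libraries. In M1-like cells it was 1.90 (1.79 to 2.03) in WT cells and 1.10 (1.03 to 1.18) in mutant cells, and in M2-like cells 0.927 (0.885 to 0.971) and 0.786 (0.760 to 0.813). In neutrophils it was 1.17 (1.08 to 1.27) and 0.772 (0.728 to 0.820). Intervals of the libraries overlapped in endothelial, erythroid and mesenchymal cells and in subcluster 2. Of the neutrophil clusters described below, 12 (1.395 and 0.731) and 13 (1.179 and 0.772) were lower in the mutant, and 8 was higher (0.714 and 0.799). Intervals overlapped in clusters 8 and 12 but not in 13. Among classes under the cut, smooth muscle cells (1.105 and 1.216), chondrocytes and the osteoblast lineage were higher in the mutant. B cells, Schwann cells, mast cells and basophils, and pericytes were lower, and intervals overlapped in each of these classes. Few cells gave much of the C1q in T cells, as given below. The ratio of C1qc to C1qa in macrophages was 0.761 in WT and 0.724 in the mutant. Since the classes share a library, they are not independent measurements of this ratio.

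**Figure D4:**
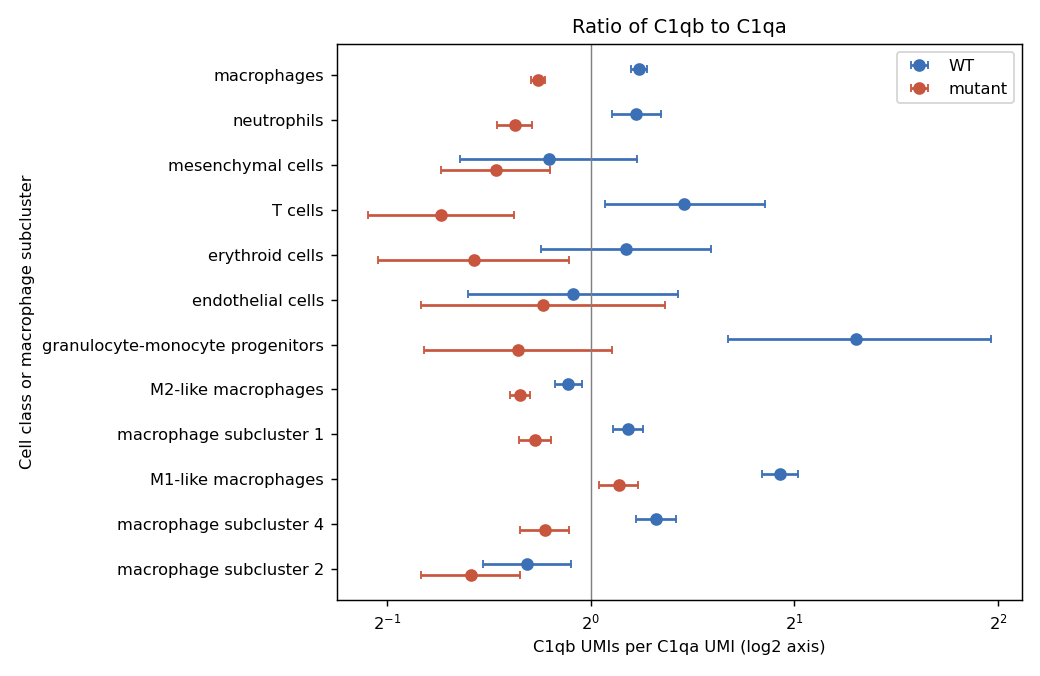
Ratio of C1qb to C1qa UMIs by cell class and macrophage subcluster, WT beside mutant, on a log2 axis with exact 95% intervals. Only groups with at least 20 UMIs of each gene in both libraries are shown. The mutant value is below the WT value in every class and subcluster shown, 1.18 against 0.836 in macrophages.

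Outside macrophages C1q was next highest in neutrophils, at 823 CPM in WT cells and 1025 CPM in mutant cells for the sum of the genes. Most of this came from cluster 13, a cluster named neutrophils and led by Ccl8 together with granule genes. It held 44 WT and 243 mutant cells, 2727 of the 3130 WT and 5728 of the 6199 mutant UMIs, and had 2122 and 2296 CPM. The macrophage class had 2371.5 and 2739.9 CPM, and Ccl8 is also among the M2-like markers used here. Whether macrophages or their RNA contribute to cluster 13 was not tested. Without cluster 13, C1qa in neutrophils was at 59.1 and 53.7 CPM. T cells had 757 and 588 CPM of C1q, but 1 cell held 134 of the 304 UMIs in WT and another 258 of the 416 in the mutant. In mesenchymal cells C1qa was at 12.1 and 42.1 CPM, a difference of 1.80 on the log2 scale (1.46 to 2.15), and C1qa in B cells was also higher in the mutant. Without cluster 21, a mesenchymal cluster of 12 WT and 159 mutant cells led by Cxcl5 together with immunoglobulin genes, C1qa was at 12.3 and 24.5 CPM, a difference of 1.001. Whether RNA from other cells contributes to these low levels was not tested.

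C1s1, which encodes the protease C1s that cleaves C4 and C2, was a gene of stromal and mural cells. It was at 338 CPM in WT and 413 CPM in mutant mesenchymal cells, at 295 and 346 CPM in pericytes, at 203 and 147 CPM in smooth muscle cells and at 42.7 and 63.3 CPM in the osteoblast lineage. Intervals of mesenchymal cells and pericytes overlapped in both libraries, while those of pericytes, smooth muscle cells and the osteoblast lineage lay apart. Macrophages had 16.4 and 28.9 CPM, and B cells 2.57 and 2.18 CPM on 2 UMIs in each library. The mutant differed from WT by 0.29 (0.21 to 0.36) in mesenchymal cells, 0.23 (-0.12 to 0.58) in pericytes and -0.47 (-0.72 to -0.22) in smooth muscle. In mesenchymal cells thinned to the same depth the difference was -0.027.

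C4b encodes C4, the substrate of C1s. It was at 312 CPM in WT and 347 CPM in mutant mesenchymal cells, a difference of 0.15 (0.07 to 0.24) that turned to -0.033 with a looser filter on cells. Schwann cells came next in WT at 47.9 CPM and had 46.5 CPM in the mutant, a difference of -0.04 (-0.64 to 0.53). In the mutant, chondrocytes had 181 CPM from 114 UMIs, 60 of them in 1 cell, and 10 of 110 cells had a UMI. No C4b UMI was found in the 33 WT chondrocytes, which at 3 counts allows up to 2.97 CPM. The 9 genes are given in mutant adipocytes alone, since WT had 7 of these cells and the mutant 187. Mutant adipocytes had 905 CPM of C4b, the highest level of this gene in any class of that library, together with 2196 CPM of C3, also the highest there, 323 CPM of Cfb and 151 CPM of C1s1. These adipocytes had a median of 1888 UMIs per cell. They also held 452 UMIs of the 3 C1q genes, against 74 in mutant B cells, 24 of C3ar1 and 23 of C5ar1. Whether other cells or their RNA contribute to the adipocyte levels was not tested. In macrophages C4b was at 14.5 and 28.1 CPM, and in the M2-like subset at 76.2 and 102 CPM.

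C3 is the central protein of the cascade, on which every pathway converges. Mesenchymal cells had 1490.3 CPM in WT cells and 1874.6 CPM in mutant cells, macrophages 568 and 815 CPM, neutrophils 365 and 469 CPM, and granulocyte-monocyte progenitors 189 and 306 CPM. That order was the same in both libraries and no neighbouring intervals overlapped. B cells had 21.9 and 46.9 CPM. The mutant was higher by 0.33 (0.29 to 0.37) in mesenchymal cells, 0.52 (0.48 to 0.57) in macrophages, 0.36 (0.27 to 0.45) in neutrophils and 0.69 (0.52 to 0.86) in the progenitors. Without cluster 13, C3 in neutrophils was at 355 and 405 CPM, a difference of 0.19 (0.07 to 0.31). In 1 mutant mesenchymal cell 1118 UMIs of C3 were counted, of 12280, and without the top cell of each library the mesenchymal difference was 0.25.

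C3 was higher in the mutant in each of the 5 macrophage subclusters with enough cells. It went from 603 to 1028 CPM in M1-like cells (0.77, 0.71 to 0.83), from 603 to 834 CPM in subcluster 1 and from 501 to 649 CPM in subcluster 2. In subcluster 4 it went from 628 to 1028 CPM (0.71, 0.57 to 0.85), and in M2-like cells from 173 to 256 CPM (0.56, 0.31 to 0.82). The M2-like subset was thus lowest in C3 and highest in C1q in both libraries. With subclusters weighted by WT shares, C3 was higher in mutant macrophages by 0.66. The macrophage difference of C3 was not recomputed after thinning or as a mean over cells.

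Mesenchymal subsets differed widely in C3. The mutant mesenchymal cell with the most C3 UMIs, given above, was not left out of these subset values. Which subset holds it is not given here, and the counting intervals do not cover its weight. Lining fibroblasts, the cells that face the joint cavity (92 WT and 74 mutant cells), had 2815 and 3875 CPM, a difference of 0.46 (0.41 to 0.51). Pi16-positive fibroblasts (60 and 33 cells) had 2315 and 3055 CPM (0.40, 0.30 to 0.50), and Col15a1-positive fibroblasts (70 and 71 cells) 1466 and 1209 CPM (-0.28, -0.45 to -0.11). The unnamed subcluster led by Inmt (69 and 117 cells, median 3414 UMIs) was at 3087 and 2914 CPM (-0.08). Its leading genes also included the neutrophil genes Retnlg, S100a8, S100a9 and Ngp, and whether other cells or their RNA contribute was not tested. The widest difference between the libraries was in the subcluster led by Cntnap2 (77 and 63 cells), at 27.6 and 176 CPM (2.67, 2.11 to 3.27) on 32 and 145 UMIs. Subcluster 2, led by genes that include Hapln1 and Acan, which encode cartilage matrix proteins, had 20.7 and 9.92 CPM. The subcluster led by Egfl6 had 463 and 825 CPM (0.83, 0.67 to 0.997). Subcluster 8, of 13 and 16 cells, had 855 and 415 CPM (-1.04, -1.42 to -0.68). C4b followed a similar range, from 682 and 683 CPM in lining fibroblasts to 1.48 and 7.72 CPM in subcluster 2. C4b in Pi16-positive fibroblasts was 409 CPM in WT cells and 731 CPM in mutant cells (0.84, 0.62 to 1.05), while the lining value did not differ (0.00, -0.11 to 0.11). C1s1 was higher in the mutant by 0.42 (0.31 to 0.53) in lining and 0.53 (0.31 to 0.75) in Pi16-positive fibroblasts, and lower by -0.42 (-0.73 to -0.11) in Col15a1-positive fibroblasts.

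**Figure D5:**
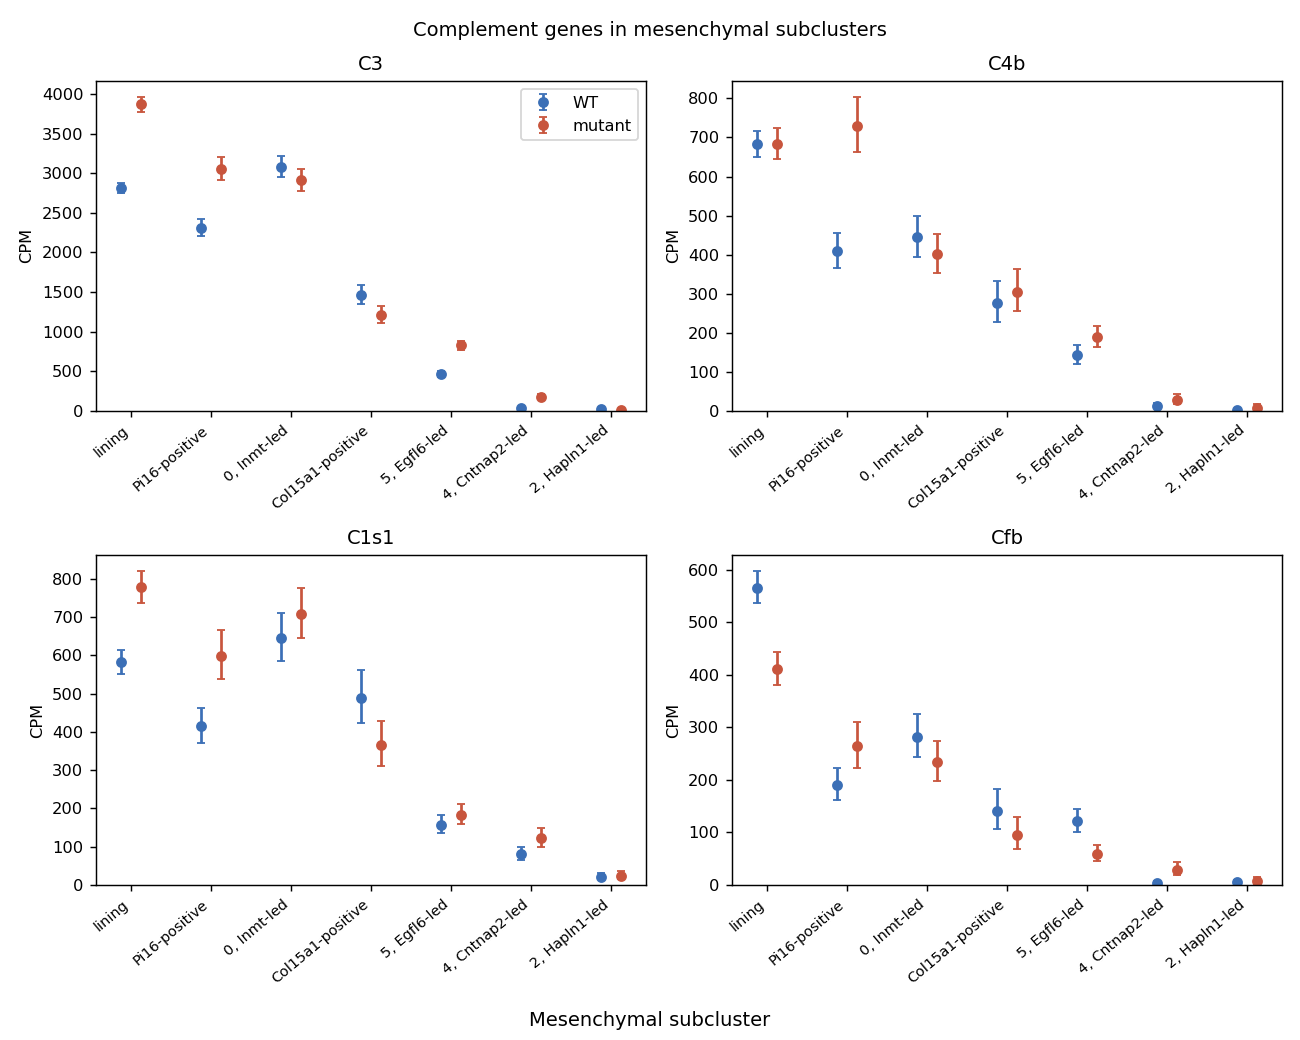
CPM of C3, C4b, C1s1 and Cfb in the mesenchymal subclusters, WT beside mutant, on linear axes from 0 with 95% counting intervals. Subclusters 7 (5 WT and 27 mutant cells) and 8 (13 and 16 cells) are not shown. C3 spans from 20.7 CPM in subcluster 2 to 3087 CPM in subcluster 0 in WT, and lining fibroblasts reach 3875 CPM in the mutant. Subcluster 0 is led by Inmt together with neutrophil genes. The mutant mesenchymal cell with the most C3 UMIs was not left out.

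Cfb encodes factor B, the serine protease precursor of the alternative pathway convertase. Its locus adjoins C2 and the counting rules for overlapping genes are not given in the sources used here. Macrophages had 514 CPM in WT cells and 706 CPM in mutant cells (0.46, 0.41 to 0.50), while mesenchymal cells had 247 and 186 CPM (-0.41, -0.51 to -0.31). In these pooled values Cfb thus differed in opposite directions in these classes. The mesenchymal fall was -0.46 (-0.60 to -0.33) in lining fibroblasts and -1.05 (-1.51 to -0.60) in the subcluster led by Egfl6, whereas Pi16-positive fibroblasts went from 190 to 264 CPM (0.47, 0.14 to 0.81) and the subcluster led by Cntnap2 from 2.59 to 29.1 CPM (3.49, 1.77 to 5.87) on 3 and 24 UMIs. In mesenchymal cells thinned to the same depth the difference was -0.061. The macrophage difference of Cfb was not recomputed after thinning or as a mean over cells. With subclusters weighted by WT shares it was 0.58. Among macrophages Cfb went from 509 to 820 CPM in M1-like cells and from 550 to 1167 CPM in subcluster 4 (1.09, 0.94 to 1.23), and was 253 and 267 CPM in M2-like cells (0.08, -0.14 to 0.30).

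Neutrophils had 98.0 CPM of Cfb in WT and 150.2 CPM in the mutant. Without cluster 13 they had 15.9 and 49.8 CPM, a difference of 1.65 (1.15 to 2.18). In cluster 8, led by Retnlg and Cxcr2, it was 22.0 and 97.0 CPM, and in cluster 12, led by the granule genes Camp, Ngp and Ltf, 13.4 and 28.8 CPM. Endothelial cells had 38.0 and 34.1 CPM (-0.15, -0.45 to 0.14), and B cells 27.0 and 26.2 CPM. Within endothelium the cluster led by Ubd, Selp and Sele had 78.1 and 65.7 CPM, against 8.11 and 14.1 CPM in the cluster led by Timp4 and Gpihbp1. These clusters were chosen after their values were seen.

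The receptor of C3a, C3ar1, went from 116 CPM in WT to 206 CPM in mutant macrophages, a difference of 0.82 (0.73 to 0.91). The share of thinned macrophages with a C3ar1 UMI was 23.5% (20.02% to 27.3%) in WT cells and 31.0% (27.3% to 34.9%) in mutant cells, and 60.0% and 64.3% before thinning, against 0 of 119 (up to 3.05%) and 1.04% of thinned B cells. M2-like cells had 510.0 and 514 CPM (0.01, -0.14 to 0.17), the highest level of any macrophage subcluster. The mutant was higher in M1-like cells (51.2 and 75.2 CPM, 0.56), subcluster 1 (174 and 258 CPM, 0.57) and subcluster 4 (143 and 241 CPM, 0.75). With WT shares of subclusters the difference over macrophages was 0.43.

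C5ar1, the receptor of C5a, was highest in neutrophils, at 439 CPM in WT cells and 408 CPM in mutant cells (-0.11, -0.20 to -0.02). Without cluster 13 the levels were 519 and 494 CPM and the interval of the difference included 0 (-0.07, -0.17 to 0.03). Cluster 8 had 895 and 818 CPM and cluster 12 had 366 and 350.0 CPM. The share of thinned neutrophils with a UMI was 63.6% (58.0% to 68.9%) in WT cells and 48.6% (44.2% to 53.1%) in mutant cells, and 89.4% and 74.1% before thinning, against 0 of 119 (up to 3.05%) and 2.08% of thinned B cells. B cells had 2.57 CPM of C5ar1 in WT and 56.7 CPM in the mutant, on 2 and 52 UMIs. The B-cell level was not recomputed without the cell that held the most. The neutrophils of the mutant included 243 cells of cluster 13, which had 283 and 285 CPM. Macrophages had 135 and 189 CPM (0.48, 0.39 to 0.57), a difference that was 0.045 after thinning. Here the named subsets moved in opposite directions: M1-like cells went from 77.0 to 122 CPM (0.67, 0.50 to 0.83) and M2-like cells from 336 to 230 CPM (-0.55, -0.75 to -0.34). Subclusters 1 (0.22, 0.07 to 0.37) and 4 (0.50, 0.17 to 0.83) were also higher in the mutant. In subcluster 2 the interval included 0 (0.32, -0.12 to 0.76). With WT shares of subclusters the C5ar1 difference over macrophages was 0.31.

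Differences between the libraries of 2-fold or more were counted among the members in macrophages, neutrophils, endothelial cells and mesenchymal cells only. In macrophages 0 of 9 reached it, where 7.2% of 11169 genes with at least 50 UMIs did. In neutrophils 1 of 9 did, C1s1 on 9 and 51 UMIs, against 5.22% of genes, and in endothelial cells 0 of the 6 members with enough UMIs, against 3.98%. In mesenchymal cells 5 of 9 did, against 6.07%, and all 5 were higher in the mutant: the C1q genes, C3ar1 and C5ar1, which are genes of myeloid cells. Except for C1qa of WT cells, at 1.65 on the log2 scale (0.06 to 3.95), none of these 5 exceeded the B-cell background beyond counting error. Relative to B cells the C1q sum was -0.04 (-0.65 to 0.63) for WT and 0.26 (-0.09 to 0.63) for mutant cells. Mutant C5ar1 was below B cells, at -2.52 (-3.06 to -1.96). Few thinned mutant B cells had a C5ar1 UMI, as given above, and this interval does not cover an uneven spread over cells. Within B cells the C1q sum was itself higher in the mutant by 1.39 (0.71 to 2.12). Mutant B cells were not the lowest class. Mutant endothelial cells had 29.6 CPM of the C1q sum and 4.57 CPM of C5ar1, against 80.7 and 56.7 CPM in B cells. Mutant mesenchymal cells had 96.9 and 9.92 CPM. The comparison with B cells cannot show whether these 5 genes are only background in mesenchymal cells, which was not tested. Without cluster 21, 3 of 9 reached 2-fold (C1qa, C1qc and C3ar1), against 5.06% of the genes of those cells. C1qb was then higher by 0.82 (0.40 to 1.25) and C5ar1 by 0.52, with an interval that included 0 (-0.24 to 1.27). Neutrophils without cluster 13 had 1 of 9, Cfb, against 5.66%.

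Of 55 complement genes listed by pathway, 28 reached 50 CPM in some class of both libraries, 19 of them outside the 9. By role these were 7 of 10 classical pathway genes, 3 of 9 lectin pathway genes, 3 of 4 alternative pathway genes, 0 of 7 terminal pathway genes, 8 of 15 regulators and 7 of 10 receptors. The share of all genes that reach this level was not computed, so these counts cannot be called high or low. The regulators had their highest levels in different classes. Serping1, the C1 inhibitor, was at 2078 and 1903 CPM in mesenchymal cells, and Cd59a, an inhibitor of the terminal complex, at 234 and 232 CPM in Schwann cells. Cd55, which breaks up convertases, was at 200.01 and 199 CPM in mesenchymal cells and at 52.7 and 236 CPM in B cells. Cr1l, its relative on mouse cells, was at 157 and 181 CPM in endothelial cells. Clu, which encodes the chaperone clusterin, was at 88.4 and 112 CPM there and at 343 CPM in mutant chondrocytes. Pericytes were highest in Vtn, which encodes vitronectin, at 456 and 546 CPM. Csmd1 was at 1371 and 1385 CPM in pericytes, below Schwann cells in WT (2544 CPM) and muscle cells in the mutant (2059 CPM). C1ra, which encodes the partner protease of C1s and has a near-identical copy, was at 301 and 263 CPM in mesenchymal cells, and C2, the other substrate of C1s, at 53.8 and 73.3 CPM in pericytes. Of the collectin genes listed with the lectin pathway here, Colec11 was at 97.2 and 93.9 CPM in pericytes and Colec12 at 705 and 690.4 CPM in the osteoblast lineage. Properdin, Cfp, which stabilises the alternative convertase, was at 73.6 and 91.1 CPM in macrophages. Fcnb, a ficolin of the lectin pathway, was at 314 and 317 CPM in neutrophils. The integrin genes of the complement receptors were highest in myeloid cells, Itgam at 546 and 599.8 CPM in neutrophils, Itgax at 223 and 153 CPM in macrophages and Itgb2 at 529.9 and 544 CPM in macrophages. Cd93 was at 623 and 669 CPM in endothelial cells and C1qbp at 108 and 156 CPM in mast cells and basophils. Itgax was at 314 and 281 CPM in M1-like cells but 14.4 and 18.6 CPM in M2-like cells, the reverse of C1q.

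Across 16 cell classes in both libraries (32 points, which share 2 libraries and their depths), the genes closest in pattern were found by Pearson's r of log2(CPM + 5) among 5228 candidates. The likeness is a description over classes and need not hold within a class. Within macrophages Arg1 was at 786 and 814.5 CPM in M1-like cells, against 489 and 267 CPM in the other macrophages. The C1q sum was instead far lower in M1-like than in M2-like cells. C1qa was closest to Arg1 (r = 0.91), Ms4a7 (r = 0.91), Ccl5, Il1rn and Adam8, C3ar1 to Ms4a7 (r = 0.92), Clec4d, Adam8, Bcl2a1b and Bcl2a1a, and C5ar1 to Ccr1 (r = 0.95), Cd300lf, Aoah, Nfam1 and Csf3r. C3 was closest to Ccl7 (r = 0.91), Dram1, Ifi204, Mmp19 and Hp, and Cfb to Nos2 (r = 0.86), Cxcl16, Mmp19, Dram1 and Ccl7. C4b was closest to Efemp1 (r = 0.85), Gsn, Sfrp1, Timp2 and Sema3c, and C1s1 to Ebf2 (r = 0.94), Cygb, Cd248, Pla2r1 and Pdgfrb, the receptor gene of mural cells and fibroblasts. Among the members, C1qa and C1qb (r = 0.95) and C3 and Cfb (r = 0.84) were alike, whereas C3 and C1s1, both highest in mesenchymal cells, were less so (r = 0.28).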

How the data were processed

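The samples were 2 droplet libraries of CFA-treated TMJ, 1 WT and 1 Prox1+/- mutant, grouped by their labels. The authors aligned reads to GRCm38 (mm10) by Cell Ranger 7.0.1, and the deposited values are raw UMI counts per gene and barcode, not normalized. Whether intronic reads were counted is not given in the sources used here. The labels and the methods name different versions of the reagent kit, which was not resolved. The 9 genes and the lists were chosen with earlier results of these data known.

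Following the study's methods, barcodes under 500 genes or with 10% or more mitochondrial UMIs were dropped. SCTransform normalization and anchor integration were followed by clustering with 200 principal components and a resolution of 1.5 (Seurat 5.3.0, sctransform 0.4.2, R 4.3.3). Macrophages and mesenchymal cells were reclustered on 30 components at resolution 0.5. The 55 complement genes were left out of clustering and naming. A cluster took the name of the class with the most strongly raised markers, needing at least 3 markers raised 2-fold in at least 10% of its cells, and stayed unnamed where another lineage's markers led or it was shallow. A rule that leaves clusters led by gland genes unnamed was chosen after the clusters were seen. Doublets stayed in the main values. Scrublet's automatic threshold called 0 in both libraries. The 239 WT and 462 mutant barcodes with the highest scores, of 5469 and 7603 scored, were therefore called as doublets. Leaving these out as an alternative kept 4193 of the 4352 WT cells and 5413 of the 5757 mutant cells.

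UMIs were summed over the cells of a class and given as CPM with exact Poisson intervals, shares with Clopper-Pearson intervals and ratios with exact conditional binomial intervals, all at 95%. Reads amplified from 1 molecule were collapsed by UMI, and the intervals cover counting error only. A class at 0 was set to 3 counts to give a limit. Cells were thinned to 2000 UMIs for shares. Counts past 2-fold used genes with at least 50 UMIs. The genes named are the 9, every other listed complement gene with at least 50 CPM in a class of both libraries except 1 that is not reported here, and for each pattern the 5 most alike outside the list with at least 100 CPM. The calculation of ratios was checked on counts simulated from macrophages with 11051 genes. There 99.5% of 195 changed genes passed 2-fold, 0.0461% of unchanged genes did, and 95.3% of true values lay inside the interval. The simulated counts followed the Poisson error that the intervals assume, and every change put in was larger than 2-fold. These shares were therefore largely set by the design, and the spread between cells was not part of it. Alternatives changed the filters on cells (200 genes and 20%, or 1000 genes and 5%), doublets, integration, normalization, components (30), resolution (0.5 for all cells, 0.2 or 1.0 for macrophages), the complement genes in clustering, the weighting of cells and the minimum of 200 UMIs. Values were computed with Python 3.11.15, numpy 2.4.6, scipy 1.17.1 and pandas 2.3.3. Imaging and behaviour were not analysed here.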

Additional observations from a re-analysis of the deposited data

Results flagged for a closer look

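The same gene differed between the libraries in opposite directions in different cell classes, with intervals on opposite sides of 0. The difference between classes was not tested, and most of these values rest on few UMIs. C1qa was lower in the mutant in the osteoblast lineage (-1.91 on the log2 scale, 53 against 8 UMIs) and higher in chondrocytes (4.77, 4 against 68 UMIs). C1qb was lower in mast cells and basophils (-2.99, 31 against 3 UMIs) and higher in chondrocytes (5.30, 3 against 74 UMIs). C3 was lower in pericytes (-1.21, 47 against 12 UMIs) and higher in dendritic cells (3.72, 2 against 33 UMIs). C4b was lower in erythroid cells (-2.001, 14 against 7 UMIs) and higher in the osteoblast lineage (3.47, 8 against 50 UMIs). C3ar1 was lower in T cells (-1.40, 33 against 22 UMIs) and higher in chondrocytes (4.00, 1 against 10 UMIs). C1s1 was lower in erythroid cells (-2.001) and higher in chondrocytes (2.90, 3 against 14 UMIs). Chondrocytes had a median depth of 32169 UMIs in WT and 3366.5 UMIs in the mutant, and these were 33 and 110 cells.

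Barcodes that the filters left out, 1357 in WT and 2089 in the mutant, also held complement UMIs. In WT they had 49.1 CPM of C1qa, 54.8 of C1qb, 35.0 of C1qc, 21.2 of C1s1, 12.8 of C4b, 85.2 of C3, 43.5 of Cfb, 7.38 of C3ar1 and 24.3 of C5ar1. In the mutant they had 39.2 CPM of C1qa, 34.3 of C1qb, 23.7 of C1qc, 8.01 of C1s1, 9.24 of C4b, 48.2 of C3, 17.5 of Cfb, 5.05 of C3ar1 and 14.4 of C5ar1. The ratio of C1qb to C1qa in these barcodes was 1.12 (0.937 to 1.33) for WT and 0.874 (0.742 to 1.03) for the mutant, with overlapping intervals.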

How the results depend on the processing

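Depth limits the values: with 1 library a condition, intervals cover counting error and not the spread between mice, and classes under 50 cells rest on few UMIs. Of 216 class levels recomputed, 2 moved beyond 1.5-fold, but 141 lay outside the counting interval of the main value and 75 inside. Many differences between the libraries given here are smaller than 1.5-fold. With cells thinned to 1000 or 4000 UMIs in place of 2000, 34 shares lay outside their main interval and 2 inside. Such a share depends on the depth by construction, so these counts cannot show how stable the shares are. Values below are log2 ratios of the mutant to WT unless named otherwise, and the cause of each shift was not tested. The direction turned for C1q in macrophages as a mean over cells (-0.087) and after thinning to 2000 UMIs (-0.13), for C1s1 in mesenchymal cells after thinning (-0.027), and for C4b in mesenchymal cells at 200 genes and 20% (-0.033). C1q in macrophages was 0.17 at 200 genes and 20%, 0.082 at 1000 genes and 5%, 0.18 without the highest doublet scores and 0.16 on 30 components. C3ar1 in macrophages was 0.46 as a mean over cells and 0.59 thinned, and C5ar1 there 0.24 and 0.045. C3 and Cfb in macrophages were not recomputed under the alternatives. C5ar1 in neutrophils was -0.20 at 1000 genes, -0.27 without doublets, -0.28 without integration, -0.59 as a mean over cells and -0.50 thinned. In mesenchymal cells C3 was 0.16 at 200 genes, 0.38 without doublets, 0.18 without integration, 0.27 log-normalized, 0.21 at resolution 0.5, 0.26 as a mean over cells, 0.25 without the top cell and 0.19 thinned. C4b was 0.069 without integration, 0.24 on 30 components and 0.031 at resolution 0.5. C1s1 was 0.11 at 200 genes, 0.14 without integration, 0.16 at resolution 0.5 and 0.10 as a mean over cells. Cfb was -0.57 at 200 genes, -0.55 without integration and at resolution 0.5, -0.21 as a mean over cells and -0.061 thinned. The C1q ratio of M2-like to M1-like cells in WT and the mutant was 3.70 and 3.62 with complement genes kept for clustering, 3.62 and 3.48 without integration, 3.64 and 3.52 at resolution 0.2 and 3.60 and 3.54 thinned. In the mutant it was 3.27 at 200 genes, 3.62 as a mean over cells and 3.48 without the top cell. No M1-like subcluster could be named at 1000 genes, without doublets, with log-normalization, at resolution 0.5 for all cells or at resolution 1.0 for macrophages. Without cluster 21, added after the data were seen, the ratios of C3, C4b, C1s1 and Cfb kept their direction, while C1qa fell to 1.001, C1qb to 0.82 and C5ar1 to 0.52 from 1.80, 1.54 and 1.37. With at least 200 UMIs, 312 genes passed 2-fold in macrophages, 223 in mesenchymal cells, 149 in neutrophils and 138 in endothelial cells, against 804, 731, 481 and 425. No paired analysis was possible because each condition has 1 library.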

Other observations

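Some further complement genes differed in where they were counted, and they were chosen after their values were seen. Vsig4, a receptor for C3b on resident macrophages, had 62 UMIs in 4 of 67 WT M2-like cells (63.9 CPM), 35 of them in 1 cell, and 3 UMIs in 2 of 102 mutant M2-like cells (1.36 CPM). C7, a component of the terminal complex, had 78 UMIs in 20 kept WT cells, all mesenchymal, and 4 UMIs in 4 mutant cells. In the Inmt-led mesenchymal subcluster, whose leading genes include neutrophil genes, C7 was at 81.8 CPM in WT, from 54 UMIs in 10 of 69 cells. In the mutant it was at 1.56 CPM there, from 1 UMI in 117 cells. Cfd, which encodes the adipocyte protease factor D that cleaves factor B, was at 4528 CPM in 7 WT and 9128 CPM in 187 mutant adipocytes. In the mutant it was counted in 853 kept cells, including neutrophils at 15.5 CPM and B cells at 7.64 CPM, and in WT in 7 kept cells.

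Cr2, the complement receptor of B cells, was counted at 55.6 CPM in mutant B cells (51 UMIs in 28 of 121 cells) and had 0 UMIs in 147 WT B cells, with an upper limit of 4.75 CPM. B cells of the libraries, which give the background levels of the report, therefore differed in this gene.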
